A study of Mus musculus with 8 samples.

Results

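The potassium channel genes described here are the mouse genes whose symbol is Kcn followed by lower-case letters and a number, the names under which channel pores and their dedicated subunits are catalogued. The rule took 92 of the 55418 genes in the count tables, and each of the 92 matched 1 protein-coding gene of GENCODE M21. RNA-seq was carried out on E14 mouse embryonic stem cells (ESCs; strain given as 12910la), with 2 libraries in each of 4 groups. The control libraries came from cells that the labels call wild type and for which the study describes an shRNA against luciferase, and the other groups from cells depleted of Hira, Ubn1 or Ubn2, subunits of the HIRA complex that deposits histone H3.3. All cells were grown on gelatin in serum with LIF, and the labels of every group, controls included, give transfection with 1000 ng of a puromycin-resistance plasmid and 3 days of puromycin, so each library is a selected pool of transfected cells and not a clone. The question was which genes change when each subunit is reduced.

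Hira stood at 89.5 and 97.7 CPM (counts scaled to the size of the library) in the control libraries and at 10.0 and 10.4 CPM after its depletion, Ubn1 fell from 53.1 and 44.1 to 23.8 and 23.8 CPM, and Ubn2 from 50.1 and 51.7 to 30.1 and 24.6 CPM. Library totals on genes lay between 19710040 and 32706053 counts. The ESC markers, 8 genes including Pou5f1, Sox2 and Nanog, summed to 6439 and 6652 CPM in controls and to between 5391 and 5865 CPM in the 6 depleted libraries, all of them below both controls. None was at 0, and 2 of the 8 were called lower after Ubn2 depletion. The part of these markers in the channel values was not tested. In bulk RNA, fewer cells that express a gene and less RNA per cell cannot be told apart.

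Potassium channels let potassium leave or enter the cell and so set its resting voltage and end its action potentials. Voltage-gated pores open when the membrane depolarises, inward rectifiers and tandem-pore channels carry current near rest, and calcium- or sodium-activated channels follow ions inside the cell. Silent modifier subunits form no channel alone but change the pores they join, and auxiliary subunits adjust gating and traffic. These families are best known from neurons, heart and epithelia.

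Most members were low in these ESCs. Of the 92, 3 had no count in any library, namely Kcna10 among the voltage-gated pores, Kcnj1 among the inward rectifiers and Kcnk10 among the tandem-pore channels. Including these, 25 members stayed under 10 counts in every library. An average of at least 1 CPM over the 8 libraries was reached by 37 members, of which 12 were voltage-gated pores, 6 inward rectifiers, 6 calcium- or sodium-activated channels, 5 auxiliary subunits, 4 silent modifiers and 4 tandem-pore channels. A test was possible for 58 members in at least 1 comparison and for 42 in all 4. In each library between 73 and 83 members had a count.

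Levels between genes were compared as CPM per kilobase of exon, in the 2 control libraries. Kcnk5, an alkaline-activated tandem-pore channel, stood highest at 19.8 ± 0.734 (SD, n = 2), above 88.9% of the 28345 genes with a control count. Next came Kcnh2, the hERG channel of cardiac repolarisation, at 3.81 ± 0.401, and Kcnj4, a strong inward rectifier, at 3.64 ± 0.501. These neighbours overlapped, so their order is not set by these libraries.

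The mechanosensitive tandem-pore channel Kcnk4 followed at 2.86 ± 0.0596 CPM per kilobase and the ether-a-go-go-like channel Kcnh3 at 2.35 ± 0.471. The level of Kcnk4 cannot be assigned to it alone, since part of its exon sequence overlaps Catsperz. The A-type channel Kcnd1 was at 2.16 ± 0.0530, the small-conductance calcium-activated channel Kcnn1 at 2.01 ± 0.120, the calcium-binding Kcnd partner Kcnip3 at 1.96 ± 0.338 and the weak inward-rectifying tandem-pore channel Kcnk1 at 1.96 ± 0.00386. Kcnh3 overlapped Kcnd1, and Kcnip3 overlapped Kcnn1 and Kcnk1, so that these places in the order are not set either.

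**Figure D1:**
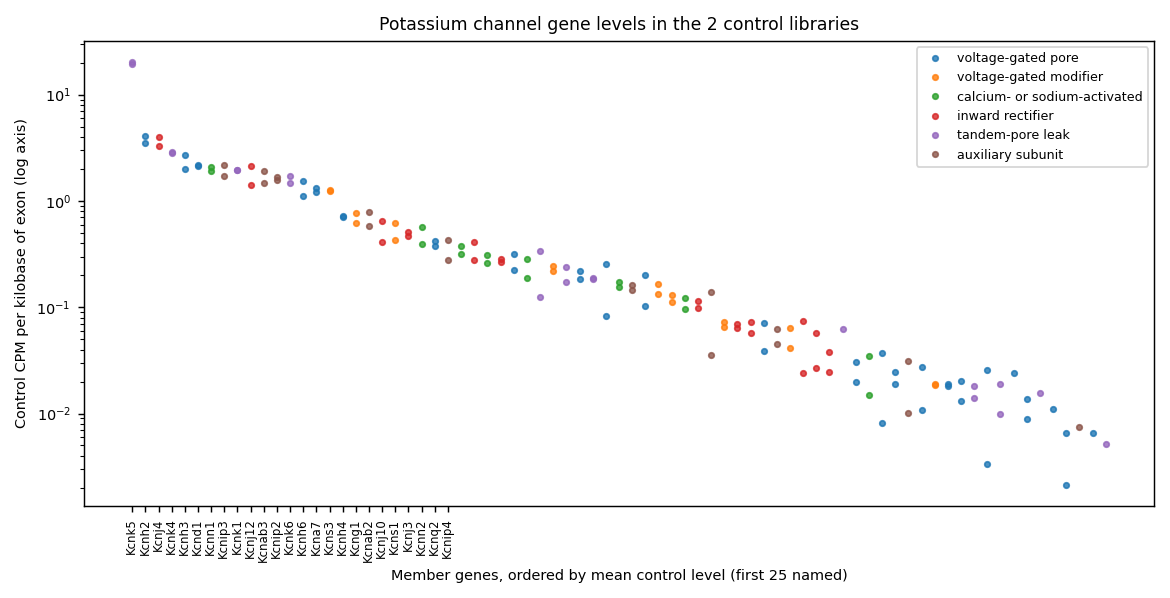
Level of members in the 2 control libraries, as CPM per kilobase of exon on a log axis, with genes ordered by their mean and coloured by class. Points stand for libraries and a library at 0 is not drawn. Kcnk5 stands apart at a mean of 19.8, and the next gene, Kcnh2, averages 3.81.

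Of these genes, Kcnk5, Kcnh2, Kcnd1 and Kcnn1 were called in no comparison. Kcnk5 gave -0.19, 0.18 and 0.04 as log2 fold changes in the Hira, Ubn1 and Ubn2 knockdowns and Kcnn1 gave -0.09, -0.15 and -0.08, and none of these passed the test. Kcnh2 gave -0.50 in Ubn2-depleted cells (edgeR adjusted p = 0.00467) and Kcnd1 one of 0.51 after Hira depletion (edgeR adjusted p = 0.00746), both short of the 1.5-fold change that a call also required. Summed over all 92 genes, CPM were 262.0 and 264.6 in the control libraries, 318.6 and 297.7 in Hira-depleted cells, 252.9 and 275.2 in Ubn1-depleted cells and 226.2 and 239.1 in Ubn2-depleted cells. The sums after Hira depletion lay above every other library and those after Ubn2 depletion below, while Ubn1 depletion overlapped the controls. Kcnk5 made up 25.6% of the control sum, and without it the order of the groups was similar, with 192.7 and 198.8 CPM in controls, 260.1 and 236.7 CPM after Hira depletion and 158.1 and 168.6 CPM in Ubn2-depleted cells.

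Hira depletion was followed mainly by higher potassium channel transcripts. Of 55 members tested, 14 were higher and 1 lower at an edgeR adjusted p under 0.05 with a fold change over 1.5. These are 25.5% and 1.82% of those tested, beside 10.8% and 5.40% of all 19035 genes tested. The median log2 fold change was 0.39 over the members and 0.01 over all genes. By class, 7 of 18 voltage-gated pores, 3 of 7 tandem-pore channels, 2 of 8 auxiliary subunits, 1 of 6 silent modifiers and 1 of 8 calcium- or sodium-activated channels were higher, and the 8 inward rectifiers tested had a median of 0.13. Each fit was repeated without each library in turn, on the remaining 3 libraries of the comparison and, as a setting chosen after seeing the data, on the remaining 7 of the study. With 3 libraries the lone one is assumed to vary like the other group, and edgeR then drew the spread of each gene wholly from its trend across genes (1 residual degree of freedom, prior degrees of freedom infinite), so these fits can give smaller adjusted p than all 4 libraries and are no stricter test. With 7 libraries all groups supply the spread. Values without a library are from the 3-library fits unless stated.

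Among the tandem-pore channels, Kcnk6 (chr7:29221926-29232515, GRCm38), a relative of Kcnk1, stood at 6.09 and 7.17 CPM in the control libraries, 16.7 and 16.1 CPM in Hira-depleted cells, 6.57 and 6.0 CPM in Ubn1-depleted cells and 3.96 and 5.41 CPM in Ubn2-depleted cells. The Hira libraries were far above the other 6. Its log2 fold change against control was 1.28 (SE 0.16, adjusted p = 3e-06).

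Kcnk1 (chr8:125995170-126030685) read 4.39 and 4.37 CPM in controls, 9.21 and 6.98 in Hira-depleted cells, 4.88 and 6.61 in Ubn1-depleted cells and 3.31 and 3.27 in Ubn2-depleted cells. Both Hira libraries were above the rest, by little over the second Ubn1 library, and the log2 fold change was 0.88 (SE 0.20, adjusted p = 0.00196). In the 7-library fit without Hira library 1 it was 0.67 and not called. Kcnk1 shares at most 179 exon bases with Gm45875 on the opposite strand, which was also higher, with a log2 fold change of 1.07. As the strand setting of the counting is not given, reads there cannot be assigned. Kcnk12, of the halothane-inhibited branch, had 7 and 15 counts in controls and 51 and 40 after Hira depletion (log2 fold change 2.01, SE 0.45, adjusted p = 0.0014). Its Ubn1 libraries held 6 and 8 counts and its Ubn2 libraries 20 and 20, which did not pass the test against control.

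Among voltage-gated pores, Kcnc4, a fast-gating channel of the Shaw family, and Kcnh3 were the called members above 1 CPM. Kcnc4 (chr3:107438303-107459552) stood at 1.17 and 0.818 CPM in controls, 2.85 and 2.37 in Hira-depleted cells, 1.09 and 0.846 in Ubn1-depleted cells and 0.368 and 0.255 in Ubn2-depleted cells. Its Hira libraries were the highest and its Ubn2 libraries the lowest, with Ubn1 depletion overlapping control. The log2 fold change after Hira depletion was 1.41 (SE 0.34, adjusted p = 0.00303). In the 7-library fits it was not called without control library 2 (1.16) or Hira library 1 (1.28).

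Kcnh3 (chr15:99224861-99242817) stood at 15.5 and 11.6 CPM in controls, 22.8 and 19.9 in Hira-depleted cells, 13.2 and 14.6 in Ubn1-depleted cells and 9.02 and 12.3 in Ubn2-depleted cells. Both Hira libraries lay above all others, while Ubn2 and control overlapped. Its log2 fold change of 0.66 (SE 0.14, adjusted p = 0.00137) fell to 0.45 without control library 2 and to 0.55 without Hira library 1, under the fold change required.

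The other voltage-gated pores called were rare in control cells, and rare genes are given as counts not scaled to library size. Kcna6, a Shaker-type channel, had 1 and 7 counts in controls and 41 and 35 after Hira depletion, with a log2 fold change of 3.20 (SE 0.59, adjusted p = 0.00024). It shares at most 2355 exon bases with Gm26673 on the opposite strand. Gm26673 had 0 and 3 counts in controls and 11 and 21 after Hira depletion, so part of the Kcna6 counts is uncertain. After Ubn1 and Ubn2 depletion Kcna6 stayed low, with 3 and 7 and with 3 and 8 counts. Kcnh8, from the same subfamily as Kcnh3, had 1 and 4 counts in controls and 23 and 15 after Hira depletion (log2 fold change 2.82, SE 0.69, adjusted p = 0.0033), while the Ubn1 libraries held 1 and 1 counts and the Ubn2 libraries 5 and 4. Without control library 1 it was 2.43 and not called in the 7-library fit.

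Subunits of the M-type current, a brake on neuronal firing, rose from near nothing. Kcnq3 had 2 and 1 counts in controls and 28 and 22 after Hira depletion, a ratio of 16.1 (exact 95% interval 5.21 to 80.8, counting error only; edgeR adjusted p = 0.000309). Kcnq5 had 3 and 6 counts in controls and 20 and 23 after Hira depletion, and its log2 fold change was 2.22 (SE 0.62, adjusted p = 0.00817). The Hira libraries were above the other 6 for each gene, as the Ubn1 libraries had 5 and 8 counts of Kcnq3 and 4 and 8 of Kcnq5, and the Ubn2 libraries 2 and 3 and 0 and 2. Kcnq5 was no longer called without control library 1 (2.08), control library 2 (2.44) or Hira library 2 (1.78).

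Kcnc1, the Shaw channel of fast-spiking neurons, had 5 and 1 counts in controls and 18 and 12 after Hira depletion, with a log2 fold change of 2.17 (SE 0.75, adjusted p = 0.0287). Its call was lost without control library 2 (1.16), Hira library 1 (2.19) or Hira library 2 (2.12), and it was called in none of the 7-library fits.

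The silent modifiers went both ways. Kcnf1, which joins voltage-gated pores, had 13 and 25 counts in controls and 47 and 34 after Hira depletion, with a log2 fold change of 1.05 (SE 0.41, adjusted p = 0.0497), and was called in none of the fits that left out 1 library, where it ranged from 0.92 to 1.25 over both kinds. Kcng1 (chr2:168260117-168281736), another such partner, was the member that fell, from 2.83 and 3.46 CPM in controls to 1.39 and 1.33 CPM. Both Hira libraries were below both controls, with a log2 fold change of -1.23 (SE 0.30, adjusted p = 0.00335). Without control library 2 it was -1.07 and not called.

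Of the auxiliary subunits, Kcnip3 (chr2:127456498-127522094), also known as the repressor DREAM, stood at 7.80 and 6.10 CPM in controls, 14.6 and 10.2 in Hira-depleted cells, 6.57 and 6.03 in Ubn1-depleted cells and 4.56 and 6.12 in Ubn2-depleted cells. The Hira libraries were higher than the other 6, and unequal to each other. Its log2 fold change of 0.84 (SE 0.19, adjusted p = 0.00156) was 0.55 without Hira library 1, under the required fold, and with 7 libraries the call was also lost without control library 2 (0.68).

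Kcnmb2, a beta subunit of the large-conductance calcium-activated channel, had 2 and 1 counts in controls and 12 and 8 after Hira depletion, a ratio of 6.45 (exact 95% interval 1.91 to 33.9; edgeR adjusted p = 0.025). It passed the filter on low counts in only 2 of the 3-library fits, those without control library 1 and without Hira library 2, and was called in neither. It was also not called without that filter (log2 fold change 2.54) and was not tested in the 7-library fits. Kcnn4, the intermediate-conductance calcium-activated channel of blood cells and epithelia, had 10 and 20 counts in controls and 67 and 19 after Hira depletion. On the CPM scale these are 0.487, 0.629, 2.03 and 0.902, so Hira library 2 stood not far above the controls. Its log2 fold change of 1.39 (SE 0.46, adjusted p = 0.024) was 1.24 without control library 1 and 0.65 without Hira library 1, neither of them called, and with 7 libraries it was also not called without control library 2 (1.62).

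In all, 7 of the 15 calls after Hira depletion were made in each 3-library fit, and 4 of the 15, those of Kcnk6, Kcnk12, Kcna6 and Kcnq3, in each 7-library fit as well. DESeq2 called 9 members higher and 1 lower. It did not call Kcnq5, Kcnn4 or Kcnf1, and gave no adjusted p for Kcnc1 or Kcnmb2. Beside these rises, the 12 neuronal markers summed to 451.0 and 455.2 CPM in controls and to 625.8 and 630.8 CPM after Hira depletion, where 5 of 11 tested were higher and 1 lower, among them the neurofilament gene Nefl (log2 fold change 1.90). Dcx was at 0 in every library. The 7 trophoblast markers went from 72.7 and 71.4 CPM to 139.5 and 114.1 CPM, with 4 higher, and the 8 fibroblast markers from 24.5 and 24.9 to 49.8 and 45.5 CPM. Their part in the potassium channel values was not tested.

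Windows at RefSeq starts of 3 genes called higher after Hira depletion are shown. They belong to a fast voltage-gated channel, a tandem-pore channel and a channel near silence in control cells. Each window holds 250 bases before and 50 bases after a RefSeq transcription start (GRCm38.p6), 5′ to 3′ on the gene's strand, with CG dinucleotides in capitals. Kcnc4 lies at chr3:107458849-107459148 on the minus strand, Kcnk1 at chr8:125994852-125995151 on the plus strand and Kcnh8 at chr17:52602459-52602758 on the plus strand. The Kcnc4 window lies wholly inside the GENCODE gene, whose 5′ end is at 107459552. By that annotation it is downstream of the outermost start of the gene, and whether it acts as a promoter was not tested.
Kcnc4: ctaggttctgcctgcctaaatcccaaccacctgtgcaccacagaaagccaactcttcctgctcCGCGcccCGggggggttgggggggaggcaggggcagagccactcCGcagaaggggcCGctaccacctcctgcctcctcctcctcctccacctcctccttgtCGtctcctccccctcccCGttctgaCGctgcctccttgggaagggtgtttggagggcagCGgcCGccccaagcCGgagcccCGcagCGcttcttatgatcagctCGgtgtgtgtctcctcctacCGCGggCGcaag
Kcnk1: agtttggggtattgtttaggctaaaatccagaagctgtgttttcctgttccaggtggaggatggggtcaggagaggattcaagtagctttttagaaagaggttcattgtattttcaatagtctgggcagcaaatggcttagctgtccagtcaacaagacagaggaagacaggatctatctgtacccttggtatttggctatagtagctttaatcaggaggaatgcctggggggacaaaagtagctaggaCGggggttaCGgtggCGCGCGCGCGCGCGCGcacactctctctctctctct
Kcnh8: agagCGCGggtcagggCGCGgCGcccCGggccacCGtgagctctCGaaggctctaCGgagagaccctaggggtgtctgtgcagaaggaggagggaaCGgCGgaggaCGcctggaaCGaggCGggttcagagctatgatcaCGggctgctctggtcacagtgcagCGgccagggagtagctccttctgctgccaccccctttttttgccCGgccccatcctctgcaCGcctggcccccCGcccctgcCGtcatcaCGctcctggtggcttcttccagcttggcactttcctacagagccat
Kcnc4 has 17 CG, more than 68.6% of the 32851 RefSeq windows, Kcnk1 has 10, more than 56.5%, and Kcnh8 has 21, more than 75.2%. Those windows include genes that are not protein-coding, so these shares do not place the 3 genes among protein-coding genes. The CG of Kcnk1 sit mostly in 1 alternating run close to the start, while those of the other pair are spread over the window.

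RefSeq windows were found for 67 of the 92 members. Taking the window with most CG of each gene, members had a median of 16 (quartiles 7 and 24) and the 17492 protein-coding genes a median of 15 (quartiles 4 and 25). The median was 19 over the 23 members averaging at least 1 CPM and 9 over the 20 members under 10 counts in every library. The letters TATAAA, searched on both strands, were in 5 of 92 member windows (5.43%) and in 13.6% of all windows, which include genes that are not protein-coding.

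After Ubn1 depletion few genes of any kind were called, and the potassium channel genes were called at much the same rate. Of 44 members tested, edgeR called 0 higher and 1 lower (2.27%), beside 1.53% and 1.56% of all 18373 genes. At an unadjusted p under 0.05, 2 members were higher and 5 lower, and DESeq2 called 0 in either direction. The median log2 fold change was -0.10.

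The member that fell was Kcnt2 (chr1:140246158-140612067), the sodium-activated channel Slick. It stood at 2.58 and 2.17 CPM in controls, 3.70 and 2.75 in Hira-depleted cells, 1.09 and 0.807 in Ubn1-depleted cells and 0.966 and 1.48 in Ubn2-depleted cells. Both Ubn1 and both Ubn2 libraries were below both controls, and the Hira libraries above. The log2 fold change after Ubn1 depletion was -1.32 (SE 0.36, adjusted p = 0.02), and it was not called without control library 1 (-1.19), control library 2 (-1.45) or Ubn1 library 2 (-1.10). The neuronal markers summed to 464.1 and 491.2 CPM after Ubn1 depletion, beside 451.0 and 455.2 CPM in controls. Of 10 tested, 1 was higher (Tubb3) and 0 lower, and the median log2 fold change was -0.22. The 7 primitive endoderm markers summed to 9.17 and 10.9 CPM beside 17.1 and 14.8 CPM in controls, with 2 of 6 tested lower. The part of either list in the channel values was not tested.

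After Ubn2 depletion the potassium channel genes were more often lower. Of 47 members tested, 8 were lower and 2 higher, or 17.0% and 4.26%, beside 8.75% and 9.59% of all 18219 genes. The median log2 fold change was -0.39. Lower calls came from 2 of 7 inward rectifiers, 2 of 13 voltage-gated pores, 2 of 8 auxiliary subunits, 1 of 6 silent modifiers and 1 of 7 calcium- or sodium-activated channels. The tandem-pore channels, 6 tested, had a median of -0.18.

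Inward rectifiers had the lowest class median, -0.81. Kcnj4 (chr15:79483714-79505241) stood at 7.07 and 8.59 CPM in controls, 9.21 and 7.03 in Hira-depleted cells, 5.20 and 8.23 in Ubn1-depleted cells and 4.23 and 4.64 in Ubn2-depleted cells. The Ubn2 libraries were the lowest of the 8 and the other groups overlapped. Its log2 fold change was -0.83 (SE 0.19, adjusted p = 0.00188), and in the 7-library fit without control library 2 it was -0.67 and not called.

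Kcnj10 (chr1:172341210-172374085), the potassium-buffering channel of glia, stood at 2.24 and 3.52 CPM in controls, 2.09 and 1.38 in Hira-depleted cells, 3.01 and 2.65 in Ubn1-depleted cells and 1.15 and 1.79 in Ubn2-depleted cells. The Ubn2 libraries were below control and overlapped those of Hira depletion. The log2 fold change of -1.0 (SE 0.33, adjusted p = 0.0185) was -0.62 without control library 2 and -0.71 without Ubn2 library 1, both not called.

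Among the auxiliary subunits, Kcnip2 (chr19:45791839-45816061), the partner of Kcnd channels in heart, stood at 5.51 and 5.85 CPM in controls, 6.97 and 6.22 in Hira-depleted cells, 2.92 and 4.19 in Ubn1-depleted cells and 2.12 and 2.96 in Ubn2-depleted cells. All 4 Ubn1 and Ubn2 libraries were below the controls. The log2 fold change was -1.17 after Ubn2 depletion (SE 0.24, adjusted p = 0.000502) and -0.67 after Ubn1 depletion, which did not pass (edgeR adjusted p = 0.0681).

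Kcnab2 (chr4:152390742-152477871), a cytoplasmic beta subunit of Shaker-type channels, stood at 3.27 and 4.37 CPM in controls, 4.82 and 5.46 in Hira-depleted cells, 4.15 and 3.46 in Ubn1-depleted cells and 2.30 and 2.60 in Ubn2-depleted cells. Its Ubn2 libraries were lowest, with a log2 fold change of -0.66 (SE 0.26, adjusted p = 0.0484). The call was lost without control library 2 (-0.42), Ubn2 library 1 (-0.57) or Ubn2 library 2 (-0.75).

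The auxiliary subunit that rose was Kcne1, which with Kcnq1 forms the slow delayed rectifier of heart muscle. It had 0 and 0 counts in controls, 6 and 1 in Hira-depleted cells, 2 and 9 in Ubn1-depleted cells and 23 and 18 in Ubn2-depleted cells. Against a floor of 3 counts in each control library it was at least 8.22-fold higher (edgeR adjusted p = 3.5e-05), and the medians given here are the same with the gene set at that bound. The 10 heart muscle markers summed to 41.3 and 47.6 CPM in controls, 29.1 and 37.6 in Hira-depleted cells and 357.8 and 228.3 CPM in Ubn2-depleted cells. Of these, 7 were higher and 1 lower, and their part in the Kcne1 value was not tested.

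The silent modifier Kcng1 fell here as well, to 0.644 and 1.17 CPM, against 2.15 and 2.11 CPM after Ubn1 depletion. Its Ubn2 libraries were the lowest of the 8, and the log2 fold change was -1.81 (SE 0.34, adjusted p = 0.000254). Kcng2 (chr18:80294546-80364254), a modifier from the same subfamily, stood at 0.731 and 0.661 CPM in controls, 0.909 and 1.19 in Hira-depleted cells, 1.23 and 0.50 in Ubn1-depleted cells and 2.03 and 1.02 in Ubn2-depleted cells. Both Ubn2 libraries were above both controls but overlapped the other depletions. Its log2 fold change of 1.14 (SE 0.44, adjusted p = 0.0446) was not called without control library 1 (1.20), control library 2 (1.06) or Ubn2 library 1 (0.56). Kcng2 shares at most 272 exon bases with D330025C20Rik.

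Of the voltage-gated pores, Kcnh6 (chr11:106008124-106034549), an ERG-type channel, stood at 3.95 and 5.41 CPM in controls, 4.0 and 5.27 in Hira-depleted cells, 3.47 and 4.31 in Ubn1-depleted cells and 2.58 and 2.50 in Ubn2-depleted cells. Only the Ubn2 libraries stood apart, below the other 6, with a log2 fold change of -0.90 (SE 0.25, adjusted p = 0.00636) that was -0.64 and not called without control library 2. Kcnc4 fell by 1.62 on the log2 scale (SE 0.54, adjusted p = 0.0219), but the call was absent from every 3-library fit, with values from -1.91 to -1.38, from DESeq2, and from the 7-library fits without control library 1 (-1.37) or Ubn2 library 2 (-1.40). Kcnt2 had a log2 fold change of -0.96 (SE 0.34, adjusted p = 0.0289), which was -0.84 without control library 1 and -0.67 without Ubn2 library 1, both not called, and with 7 libraries was also not called without control library 2 (-1.08).

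Of the 10 calls after Ubn2 depletion, 4 were made in each 3-library fit, and 3 of these, those of Kcng1, Kcnip2 and Kcne1, in each 7-library fit as well. DESeq2 called 3 members lower, Kcng1, Kcnip2 and Kcnj4, and 1 higher, Kcne1, and did not call the others. The neuronal markers summed to 304.7 and 324.4 CPM after Ubn2 depletion, below the controls, with 6 of 10 tested lower and 1 higher. The fibroblast markers summed to 37.8 and 32.8 CPM, with 4 higher and 1 lower of 6 tested, and the trophoblast markers to 60.3 and 64.3 CPM, with 2 lower of 5 tested. The part of these marker lists in the channel transcripts was not tested. As all 3 depletions were compared with the same control libraries, the counts of calls are given side by side and not as an overlap.

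**Figure D2:**
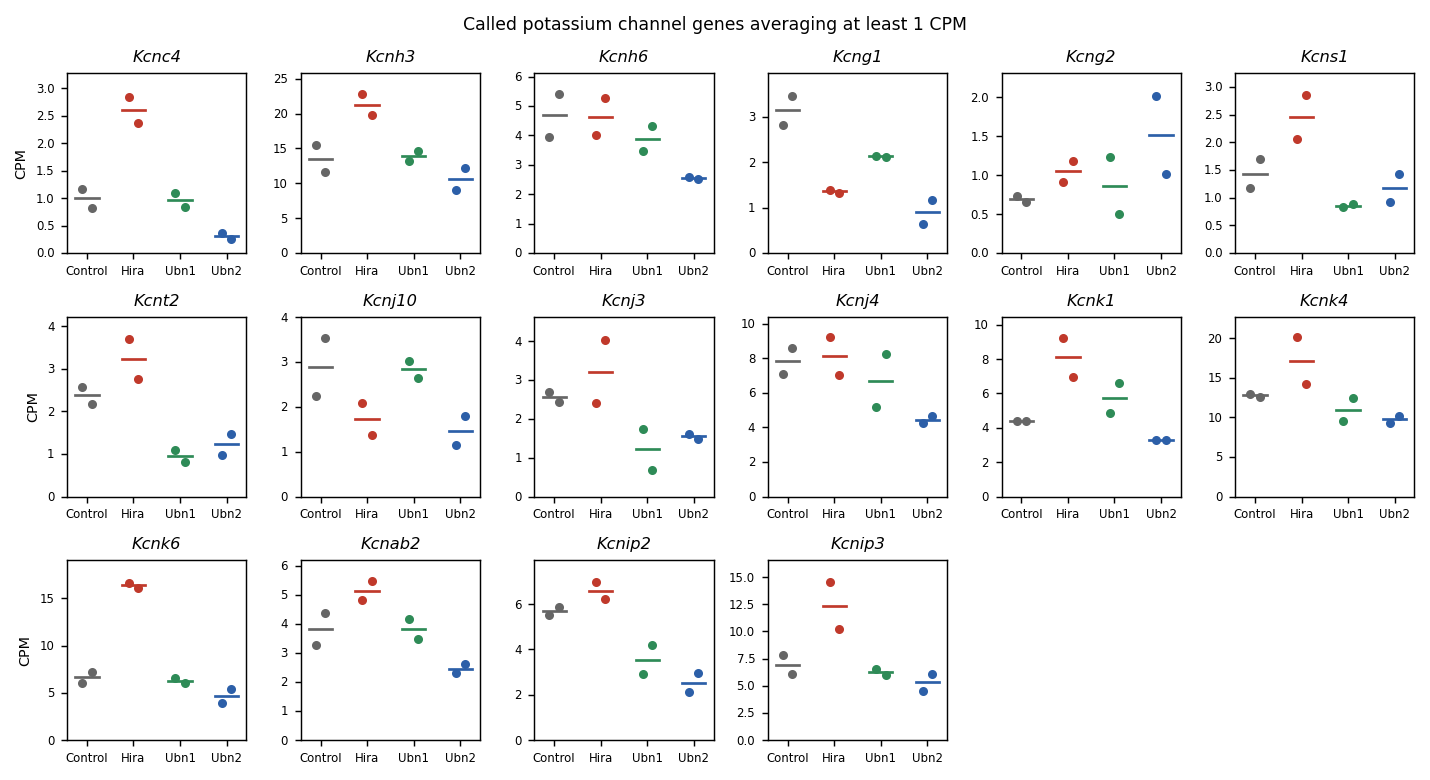
CPM in every library of 16 members that were called in at least 1 comparison and average at least 1 CPM, by group. Points are libraries, bars are means of 2 libraries, and the axes start at 0. Kcnk6 is at 16.7 and 16.1 CPM after Hira depletion and at most 7.17 CPM elsewhere, and Kcnc4 runs from 0.255 CPM after Ubn2 depletion to 2.85 CPM after Hira depletion.

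**Figure D3:**
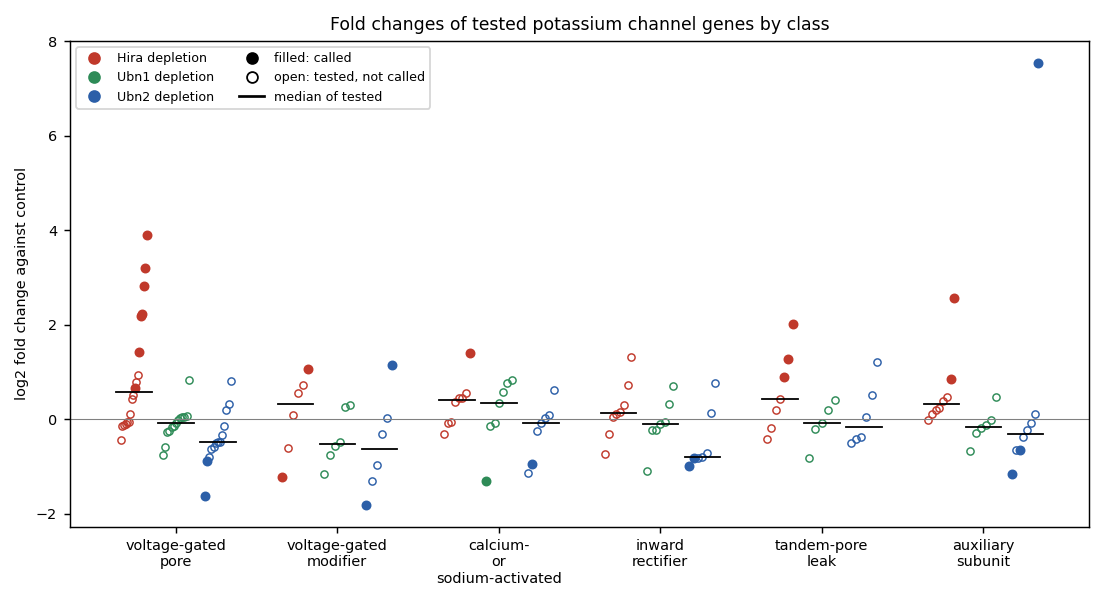
Log2 fold change against control of each tested member, by class and depletion, with filled points for calls and black bars for the median of those tested. Red points lie mostly above 0 and blue points mostly below. The highest point is Kcne1 after Ubn2 depletion, whose fitted value rests on control libraries at 0 counts, so that at least 8.22-fold is what its counts allow.

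Hira and Ubn2 depletion were then compared directly, without the controls. Of 54 members tested, 22 were higher after Hira depletion and 1 lower, or 40.7% and 1.85%, beside 12.0% and 5.61% of all 18563 genes. The median log2 difference was 0.77 over members and 0.01 over all genes. Higher calls came from 10 of 19 voltage-gated pores, 3 of 6 tandem-pore channels, 3 of 8 inward rectifiers, 3 of 7 auxiliary subunits, 2 of 6 silent modifiers and 1 of 8 calcium- or sodium-activated channels. Class medians ran from 0.46 for the modifiers to 0.83 for the tandem-pore channels. The neuronal markers differed in the same comparison, with 9 of 11 tested higher after Hira depletion and 1 lower. So did the heart muscle markers, with 7 of 10 lower, the trophoblast markers, with 3 of 6 higher, and the fibroblast markers, with 2 of 6 higher and 3 lower. Their part was not tested.

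The largest direct difference among members above 1 CPM was that of Kcnc4, 3.05 on the log2 scale (SE 0.42, adjusted p = 7.9e-05). Kcnk6 differed by 1.82 (SE 0.18, adjusted p = 4e-06), Kcnk1 by 1.31 (SE 0.22, adjusted p = 0.00033) and Kcnh3 by 1.02 (SE 0.15, adjusted p = 0.000159). For these 4 genes no Hira library overlapped a Ubn2 library, and the calls were made in all 3-library and 7-library fits. The auxiliary subunits Kcnip2, Kcnip3 and Kcnab2 differed by 1.39 (SE 0.24, adjusted p = 0.000463), 1.24 (SE 0.21, adjusted p = 0.000378) and 1.07 (SE 0.24, adjusted p = 0.00327). Kcnt2 differed by 1.42 (SE 0.33, adjusted p = 0.00371) and Kcnj4 by 0.89 (SE 0.21, adjusted p = 0.00378). Of these 5 genes, Kcnj4 was not called in the 7-library fit without Hira library 1 (0.66).

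Some members were called in the direct comparison and not against control. Kcnk4 (chr19:6923966-6934515) stood at 13.0 and 12.6 CPM in controls, 20.1 and 14.2 in Hira-depleted cells, 9.54 and 12.4 in Ubn1-depleted cells and 9.30 and 10.2 in Ubn2-depleted cells. Against control its log2 fold changes were 0.42 after Hira depletion (edgeR adjusted p = 0.0406) and -0.39 after Ubn2 depletion (edgeR adjusted p = 0.0428). Both fell short only of the 1.5-fold change. The Hira libraries were the highest pair, with a direct log2 difference of 0.83 (SE 0.17, adjusted p = 0.00157) that was 0.54 and not called without Hira library 1. Kcnk4 shares exon bases on the same strand with Catsperz, a sperm channel gene. Their counts were nearly equal, at 663 and 672 in Hira library 1 and 200 and 202 in Ubn2 library 2. Catsperz was also higher, with a log2 difference of 0.90, so the value cannot be assigned to Kcnk4 alone.

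The silent modifier Kcns1 (chr2:164163619-164171113) stood at 1.17 and 1.70 CPM in controls, 2.06 and 2.85 in Hira-depleted cells, 0.822 and 0.884 in Ubn1-depleted cells and 0.920 and 1.43 in Ubn2-depleted cells. The Hira pair was the highest, with a difference of 1.06 (SE 0.35, adjusted p = 0.03) that was not called without Hira library 2 (0.83) or Ubn2 library 1 (0.76).

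The G protein-gated inward rectifier Kcnj3 (chr2:55435970-55598145) stood at 2.68 and 2.42 CPM in controls, 2.39 and 4.04 in Hira-depleted cells, 1.73 and 0.692 in Ubn1-depleted cells and 1.61 and 1.48 in Ubn2-depleted cells. Hira and control libraries overlapped and the Ubn1 and Ubn2 libraries were lower. The direct difference of 1.04 (SE 0.33, adjusted p = 0.0235) was not called without Hira library 2 (0.64) or Ubn2 library 2 (0.97), nor with 7 libraries without Ubn2 library 1 (1.09). Kcnj3 shares at most 1621 exon bases with Gm26794. Its relative Kcnj9 had 24 and 15 counts in Hira-depleted cells and 5 and 3 in Ubn2-depleted cells (1.88, SE 0.61, adjusted p = 0.0252), and lost its call in every 3-library and 7-library fit.

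The M-type subunits differed most among the rare genes. Kcnq5 had 20 and 23 counts in Hira-depleted cells and 0 and 2 in Ubn2-depleted cells, a ratio of 16.4 (exact 95% interval 4.28 to 140.0; edgeR adjusted p = 0.00307). Kcnq3 had 28 and 22 against 2 and 3 counts, a ratio of 7.64 (exact 95% interval 3.07 to 24.6; edgeR adjusted p = 0.00273). For each gene both Hira libraries exceeded both Ubn2 libraries. With 7 libraries the call of Kcnq3 was lost without Ubn2 library 1 (log2 difference 2.58).

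Kcna6 differed by 2.41 (SE 0.54, adjusted p = 0.00315), with 41 and 35 against 3 and 8 counts, and was not called in the 7-library fit without Ubn2 library 1 (1.81). Kcnf1 differed by 2.04 (SE 0.51, adjusted p = 0.0062), with 47 and 34 against 4 and 11 counts, and was not called without Ubn2 library 1 (1.42). Kcnh6 differed by 0.86 (SE 0.25, adjusted p = 0.016), or 0.66 and not called without Hira library 2, and with 7 libraries was also not called without Ubn2 library 1 (0.88) or Ubn2 library 2 (0.83). None of these 3 had overlapping groups, and each was higher after Hira depletion.

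Kcnc1 had 18 and 12 counts against 0 and 4, a log2 difference of 2.46 (SE 0.85, adjusted p = 0.0355), and was not called without Hira library 1 (2.48), Hira library 2 (2.43) or Ubn2 library 1 (1.43). It was called without Ubn2 library 2, where the Ubn2 library left has 0 counts and gives no fold. Kcnh8 had 23 and 15 counts against 5 and 4, a difference of 1.68 (SE 0.59, adjusted p = 0.0377), and lost its call in every 3-library and 7-library fit. Kcne1 was the member higher after Ubn2 depletion, with a log2 difference of -2.90 (SE 0.64, adjusted p = 0.00263), and was -2.41 and not called in the 7-library fit without Hira library 2. Of the 23 direct calls, 13 were made in each 3-library fit and 9 in each 7-library fit as well. DESeq2 called 15 members higher and 1 lower. Among the genes named here it did not call Kcnj9, Kcnj3, Kcns1, Kcnh6 or Kcnh8, and gave no adjusted p for Kcnc1.

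**Figure D4:**
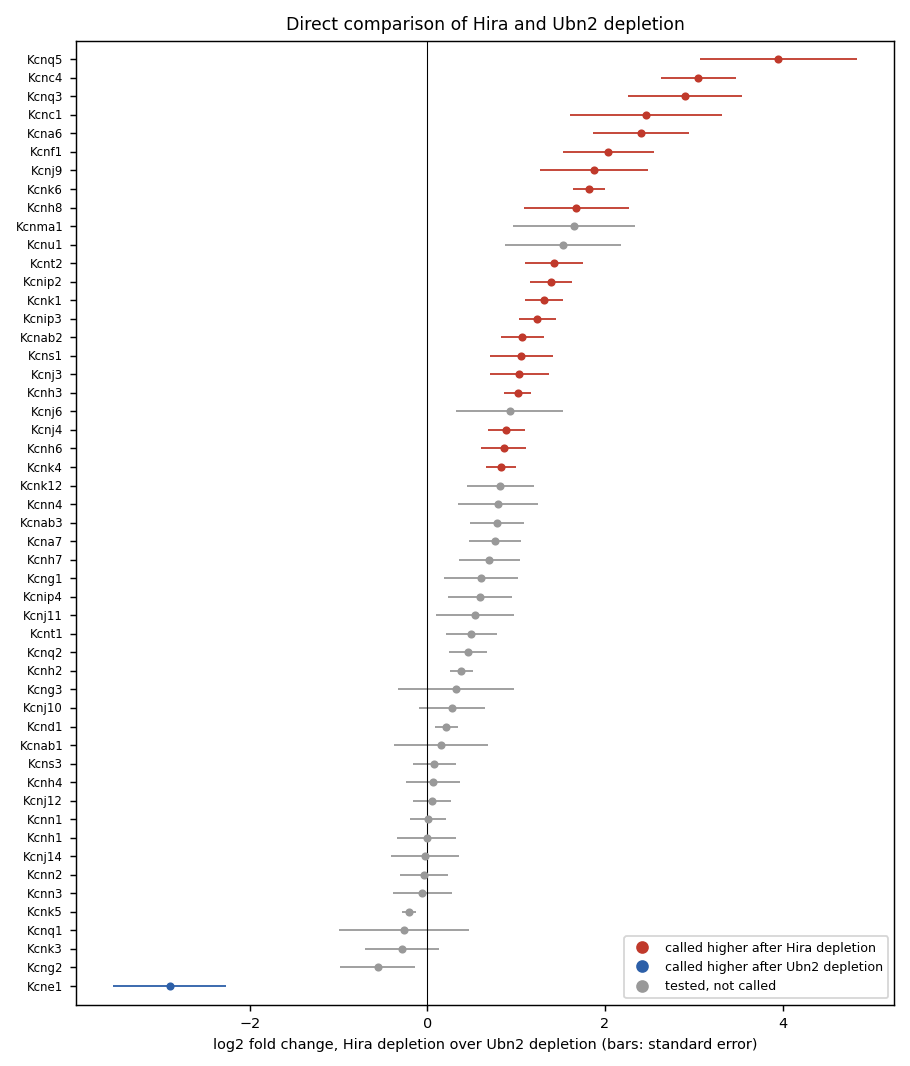
Log2 fold change of Hira over Ubn2 depletion for 51 of the 54 tested members, ordered by value, with bars for the standard error. Positive values are higher after Hira depletion. The 20 red genes are called higher after Hira depletion, and Kcne1, at -2.90, is the blue gene called higher after Ubn2 depletion. Kcnq5 heads the order on the strength of 0 and 2 counts in the Ubn2 libraries.

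Other ion transport genes give a setting for these counts. Over all genes tested, 10.8% were higher and 5.40% lower after Hira depletion, and 1.53% and 1.56% after Ubn1 depletion. The shares were 9.59% and 8.75% after Ubn2 depletion and 12.0% and 5.61% in the direct comparison. Of the potassium channel genes, 14 of 55 tested were higher after Hira depletion and 22 of 54 in the direct comparison. Of the voltage-gated sodium channels, 12 of 14 were tested after Hira depletion with 4 higher, among them Scn9a, the channel of pain fibres (log2 fold change 1.78). Scn4b had 3 and 2 counts in controls and 29 and 33 after Hira depletion, a ratio of 12.0 (exact 95% interval 4.87 to 38.2). After Ubn2 depletion 12 were tested with 2 higher and 1 lower, where Scn4b had 12 and 11 counts, a ratio of 5.82 (exact 95% interval 2.16 to 19.6), and Scn9a gave -2.49. In the direct comparison 3 were higher, Scn9a by 4.29 among them. Of 26 voltage-gated calcium channel genes, 21 were tested after Hira depletion with 7 higher and 1 lower, and 20 after Ubn2 depletion with 3 higher and 3 lower. The T-type channel Cacna1h was lower after both (-0.97 and -1.69), and the gamma subunit Cacng8 higher after both (1.20 and 1.28). In the direct comparison 5 were higher, with Cacng6 at 1.32 and Cacna1b at 1.04.

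Pacemaker and cyclic nucleotide-gated channels, 10 genes, gave 2 higher of 7 tested after Hira depletion (Cnga3, 0.88, and Hcn4, 1.46), 1 higher of 5 after Ubn1 depletion (Cnga3, 0.83), 2 lower of 5 after Ubn2 depletion (Hcn2, -0.62, and Cngb1, -0.63) and 3 higher of 6 in the direct comparison (Cnga3, 0.85, and Cngb1, 0.79, among them). The sodium-potassium ATPase, 14 genes, gave 1 higher of 10 after Hira depletion (Fxyd5, 1.13), 2 higher and 3 lower of 11 after Ubn2 depletion (Fxyd6, -0.73, among them) and 1 higher and 2 lower of 11 in the direct comparison (among them Fxyd1, with 3 and 1 counts against 28 and 13). These groups are small. Called ATPase genes went both ways after Ubn2 depletion and in the direct comparison. Called pacemaker and cyclic nucleotide-gated genes shared a direction within each comparison.

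Chloride channels, 19 genes, gave 3 higher and 1 lower of 17 after Hira depletion (Clcn4, 1.19, and Ano3, 0.66), 1 lower of 16 after Ubn1 depletion (Ano10, -0.69), 2 higher and 3 lower of 16 after Ubn2 depletion (Clcn3, -0.67, and Ano9, -0.90) and 4 higher and 1 lower of 17 in the direct comparison (Clcn4, 0.82, and Ano3, 0.72). Of 9 cation-chloride cotransporters, Slc12a5, which extrudes chloride from neurons, was higher after Ubn2 depletion (0.69) and Slc12a3 in the direct comparison (2.46). Among 11 potassium channel partners with other symbols, 5 were tested, with Dpp6, a Kcnd partner, lower after Ubn2 depletion (-1.72) and 3 higher in the direct comparison, Dpp6 by 2.19 and Amigo1 by 0.70 among them.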

How the data were processed

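RNA-seq of 8 libraries, 2 per group, was analysed. The authors trimmed reads with Trim Galore, aligned them to GRCm38 with STAR and deposited the raw counts per gene from featureCounts in 3 tables, each holding 1 knockdown beside the same controls, whose counts were identical and were used once. Versions, strand setting and treatment of multiply mapped reads are not given in the sources used here. Nothing states that the libraries of a group came from separate cultures, so p-values concern the spread between these libraries. In the 4-library fits edgeR drew the spread of each gene largely from its trend across genes. These fits had 2 residual degrees of freedom and prior degrees of freedom of 12.8 to 30.2. Replicates differed by more than counting noise (chi-square per degree of freedom of 6.30 to 14.2).

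Counts were fitted on the whole table with edgeR 4.0.16 in R 4.3.3 (TMM, filterByExpr, quasi-likelihood test), using the 4 libraries of each comparison, and p-values were adjusted by Benjamini-Hochberg over all genes tested. Calls required both a change of more than 1.5-fold and an adjusted p below 0.05. Every adjusted p printed is from edgeR. With 2 libraries against 2, a permutation test cannot go below p = 0.333, so none was run. CPM use TMM-scaled totals, and kilobases are merged exons of GENCODE M21. Intervals of count ratios are exact binomial (Clopper-Pearson) and cover counting error only.

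Called members are named, with library values where they average at least 1 CPM, as are the 10 members highest per kilobase in controls, the 3 targets and up to 2 called genes per list and comparison with the smallest adjusted p. Members and lists were chosen with earlier results of these data known. Alternatives were DESeq2 1.42.0, its size factors in edgeR, other filters on low counts, all 8 libraries in 1 fit, the adjusted p alone, a replicate block and leaving out each library, with the remaining 3 libraries of a comparison in the fit. Leaving out each library with the other 7 in the fit was added after seeing the data. Retrotransposons were not analysed here, and the values of a few single genes, which enter the counts, medians and sums, are not reported here.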

Additional observations from a re-analysis of the deposited data

Results flagged for a closer look

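Kcnc4 was singled out because its change against control differed between depletions when Hira and Ubn2 depletion were compared directly. It was called higher after Hira depletion, with a log2 fold change of 1.41, and lower after Ubn2 depletion, with -1.62, and the direct difference was 3.05 on the log2 scale (SE 0.42, edgeR adjusted p = 7.9e-05). Both Hira libraries were above both controls and both Ubn2 libraries below them. With 1 library left out, the fall after Ubn2 depletion was called in none of the fits on the remaining 3 libraries and in 2 of 4 on the remaining 7, and the rise after Hira depletion in 4 of 4 and in 2 of 4. The direct difference was called in all of both kinds.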

How the results depend on the processing

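With DESeq2, 9 members were called higher after Hira depletion, 0 lower after Ubn1 depletion, and 1 higher and 3 lower after Ubn2 depletion. Without a filter on low counts, 2 members were lower after Hira and 2 after Ubn1 depletion. With at least 10 counts in every library, which tests fewer genes, 7 were higher after Hira depletion, 1 higher after Ubn2 depletion and 0 lower in the direct comparison. With all 8 libraries in 1 fit, 1 member was higher after Ubn1 and 1 after Ubn2 depletion, and by adjusted p alone 2 were lower in the direct comparison. Leaving out each library, over the fits on the remaining 3 and, added after seeing the data, the remaining 7 libraries, gave 7 to 13 higher and 0 to 2 lower members after Hira depletion, 0 to 1 higher and 0 to 2 lower after Ubn1 depletion, 1 to 3 higher and 3 to 10 lower after Ubn2 depletion, and 12 to 20 higher and 1 to 1 lower in the direct comparison. Counts under the other settings stayed within 1.5 times those reported. The cause of the moves was not tested. The replicate numbers are in the labels, and the deviations of same-numbered libraries correlated between -0.0985 and 0.0978 over the 6 pairs of groups (19264 genes, pseudocount 0.5). A pairing that touches only some genes could not be seen in correlations over so many. The fit with a replicate block called 2 lower members after Hira depletion, 3 lower after Ubn1 depletion and 1 higher after Ubn2 depletion, and no longer called Kcng2 after Ubn2 depletion or Kcnh8 in the direct comparison. Over all settings and the genes named, 143 values of called genes were no longer called and 19 uncalled values became called. Among single genes, 42 left-out values changed sign, and each belongs to a value that was not called. After Ubn1 depletion the left-out values ran from -0.21 to 0.22 for Kcnab2, -0.28 to 0.24 for Kcnc4, -1.38 to 0.0239 for Kcnf1, -0.48 to 0.83 for Kcng2, -0.16 to 0.26 for Kcnh3, -0.32 to 0.0472 for Kcnip3, -0.32 to 0.34 for Kcnj10, -0.60 to 0.0638 for Kcnj4 and -0.19 to 0.0445 for Kcnk6. After Hira depletion they ran from -0.26 to 0.22 for Kcnh6, -0.11 to 0.67 for Kcnj3 and -0.18 to 0.23 for Kcnj4, and in the direct comparison from -0.96 to 0.0223 for Kcng2 and -0.0823 to 0.62 for Kcnj10. Depth limits the rare members most, since 25 of 92 stayed under 10 counts in every library and 34 were tested in no comparison.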
